A study of Mus musculus with 17 samples.

Results

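The 9 genes described here are Cx3cr1, P2ry12, Tmem119, Csf1r, Aif1, Trem2, Tyrobp, Siglech and Sall1, which mark microglia, and they were taken by symbol from a table of cortex transcript levels. All 9 were among the 55453 distinct symbols of the table and among the 16265 genes that passed a filter on low values. RNA came from bulk cortex of 17 male C57BL/6J mice of 3 lines, each with wild-type littermates. KO mice were hemizygous for a loss-of-function allele of the X-linked gene Hnrnph2, made by a frameshift insertion or deletion, and were compared at 8 weeks with 3 littermates (KO Control). R206W mice carried that substitution in the nuclear localization signal of hnRNPH2, an RNA-binding protein, were hemizygous and were likewise compared at 8 weeks with 3 littermates (R206W Control). P209L mice carried another substitution in that signal and were compared at 3 weeks, with 2 littermates analysed here (P209L Control). Each mutant group held 3 mice. The P209L line is the only line of 3 weeks, so line and age cannot be told apart. The mutant alleles were germline, so every cell of the cortex carried them, microglia included, and no cells were sorted.

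Microglia are the resident macrophages of the brain. They depend on signals from neighbouring cells for survival and for their surveying state, and they prune synapses and clear debris as the cortex matures. The 9 genes cover several roles. Csf1r is the receptor for CSF1 and IL-34, on which microglia depend. Cx3cr1 is the receptor for fractalkine from neurons, and P2ry12 is a receptor for extracellular nucleotides that guides microglial processes. Trem2 is a receptor for lipids and lipoproteins that signals through the adaptor Tyrobp, also known as DAP12. Siglech belongs to the family of sialic acid-binding lectins by name and also pairs with Tyrobp. Tmem119 is a membrane protein used as a marker, and Aif1 encodes IBA1, the actin- and calcium-binding protein commonly stained to show microglia. Sall1 is a zinc-finger transcription factor that maintains microglial identity.

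In GENCODE M21 (GRCm38) all 9 are protein-coding genes, on 7 chromosomes. Aif1 lies at chr17:35170991-35176068 on the minus strand and Trem2 at chr17:48346401-48354147 on the plus strand, on the same chromosome. Tyrobp lies at chr7:30413760-30417585 and Siglech at chr7:55768178-55778925, both on the plus strand. Cx3cr1 (chr9:119901616-120069879), P2ry12 (chr3:59216272-59262871), Tmem119 (chr5:113793729-113800516) and Sall1 (chr8:89027235-89044162) are on the minus strand. The span of Cx3cr1 overlaps 3 annotated genes on its own strand and 6 on the other, P2ry12 overlaps Med12l on the opposite strand, and Csf1r overlaps Mir6983 on its strand and Hmgxb3 on the other. Reads of overlapping genes could be shared between them.

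The RefSeq promoter table (GRCm38.p6) matched 6 of the 9 genes, all except Tmem119, Csf1r and Tyrobp. The 250 bases before the start of 3 of them are shown because these genes took different courses between the ages below, with Aif1 and Trem2 higher at 3 weeks and Siglech at similar levels at both ages. The windows are chr17:35176053-35176302 on the minus strand for Aif1, chr17:48346151-48346400 on the plus strand for Trem2, and chr7:55767934-55768183 on the plus strand for Siglech. Capitals mark GGAAGT, the core that the myeloid factor PU.1 is known to bind, or its reverse complement ACTTCC.
Aif1: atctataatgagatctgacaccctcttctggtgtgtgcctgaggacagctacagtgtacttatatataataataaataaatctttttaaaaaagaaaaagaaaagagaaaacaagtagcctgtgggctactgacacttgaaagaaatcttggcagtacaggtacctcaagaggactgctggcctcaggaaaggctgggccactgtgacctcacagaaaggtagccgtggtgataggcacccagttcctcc
Trem2: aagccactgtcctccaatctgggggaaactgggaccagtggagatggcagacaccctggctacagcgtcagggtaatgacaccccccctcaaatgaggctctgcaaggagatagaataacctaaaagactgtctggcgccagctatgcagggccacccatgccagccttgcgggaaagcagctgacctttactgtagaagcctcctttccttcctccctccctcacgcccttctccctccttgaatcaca
Siglech: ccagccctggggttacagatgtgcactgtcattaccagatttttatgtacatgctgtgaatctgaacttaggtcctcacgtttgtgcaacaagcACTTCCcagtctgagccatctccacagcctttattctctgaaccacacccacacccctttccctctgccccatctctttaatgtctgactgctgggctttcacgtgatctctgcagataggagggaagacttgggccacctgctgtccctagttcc
The 6 genes have 8 windows in the table, 3 of them for Sall1. GGAAGT was found on either strand in 3 of the 8 windows, of P2ry12, Siglech and 1 of those of Sall1, and in 19.7% of the 32851 RefSeq promoters of the same length. In Siglech it starts 156 bases before the start on the minus strand. The window of P2ry12 overlaps exons of Med12l on the opposite strand in GENCODE M21, annotated as coding in some transcripts and as untranslated in another. The longer form GAGGAAGT, which contains the core, was in 2.44% of promoters and in 0 of the 6 genes, and the TATA-box letters TATAAA were in 12.4% of promoters and in 0 of the 6. These matches describe letters in the windows only.

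Levels were given as TPM, the share of a gene among all transcripts of a mouse after correction for transcript length. TPM keeps no sequencing depth, so precision was judged from the spread between mice. Columns of any 2 mice correlated across genes with an r of 0.937 to 0.988. Hnrnph2 was at 21.3 to 24.4 TPM in KO mice, 80.5 to 145 in KO Control mice and 81.6 to 160 in the other groups. KO Control 1 stood apart, with 20.1% of its TPM in mitochondrially encoded genes against 10.7% to 15.4% in the other mice. In each mouse a length measure was taken, the median log2 deviation of 4454 long transcripts (at least 4000 bases) minus that of 2017 short ones (at most 1500 bases). It was -0.51 to -0.37 in the 5 mice of 3 weeks, -0.12 in KO Control 1 and 0.04 to 0.37 in the other mice of 8 weeks. Because the tissue was bulk, fewer microglia and less RNA of a gene per microglial cell cannot be told apart.

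In the 6 control mice of 8 weeks the level order ran from P2ry12 at 50.4 ± 3.66 TPM (SD, n = 6 here and below) through Csf1r at 45.6 ± 9.25 and Tyrobp at 42.2 ± 10.6 to Cx3cr1 at 24.2 ± 2.16. These were followed by Siglech at 17.99 ± 1.124, Tmem119 at 16.8 ± 1.74, Trem2 at 15.9 ± 1.57, Aif1 at 10.5 ± 1.81 and Sall1 at 6.78 ± 0.87 TPM. Neighbours among P2ry12, Csf1r and Tyrobp lay within each other's spread, as did neighbours among Siglech, Tmem119 and Trem2. Tyrobp was above Cx3cr1, Cx3cr1 above Siglech, Trem2 above Aif1 and Aif1 above Sall1 in 6 of 6 mice.

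At 3 weeks the order was different. Over the 5 mice of that age, mutants included, Tyrobp led at 79.2 ± 9.07 TPM (SD, n = 5 here and below), above P2ry12 at 38.2 ± 3.46 in 5 of 5 mice. Trem2 at 24.2 ± 4.24, Csf1r at 22.4 ± 3.58, Aif1 at 20.1 ± 2.59 and Siglech at 17.8 ± 1.55 TPM came next, each within the spread of its neighbour. Cx3cr1 at 15.1 ± 3.25, Tmem119 at 13.4 ± 1.58 and Sall1 at 4.96 ± 0.76 TPM were the lowest. The sum of the 9 genes overlapped between the ages, at 212 and 253 TPM in the P209L Control mice and 218 to 243 TPM in the control mice of 8 weeks.

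**Figure D1:**
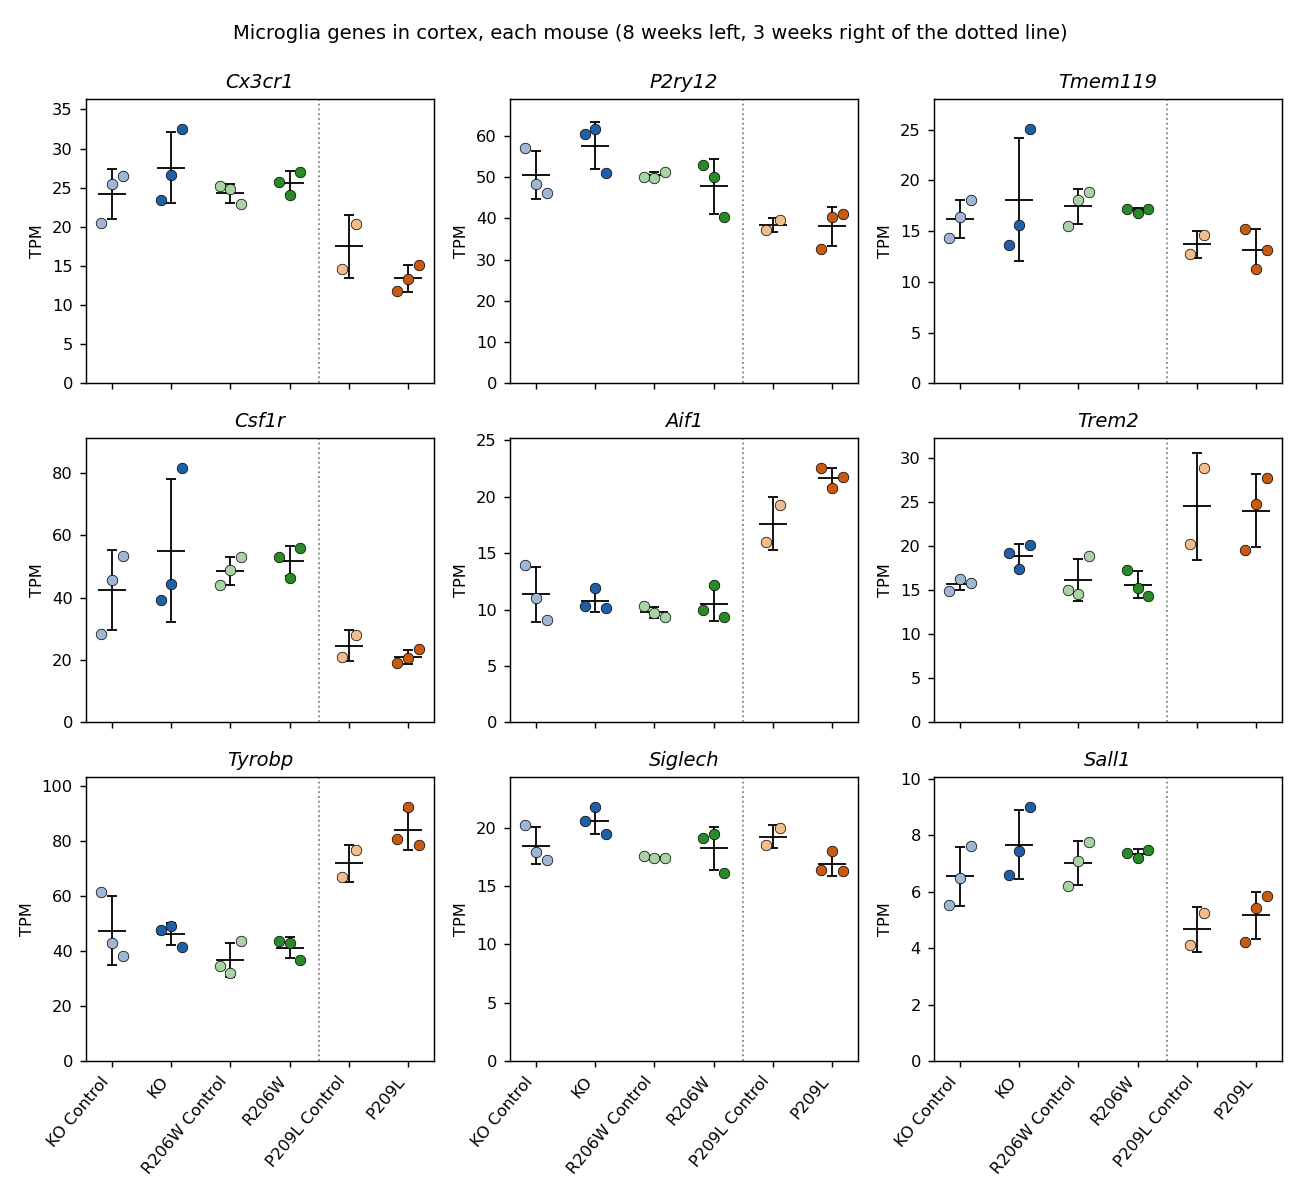
TPM (linear axes from 0) of each of the 9 microglia genes, with a point for each mouse of the 6 groups, a long bar for the group mean and whiskers of 1 SD. Tyrobp, Aif1, Csf1r and Cx3cr1 separate the 5 mice of 3 weeks from the 12 of 8 weeks without overlap, while Siglech runs at similar levels through all groups.

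The P209L Control mice were set against the averaged KO Control and R206W Control groups, here called the 8-week controls, to ask how the 9 genes differ between the ages. The 9 genes moved in opposite directions. Tyrobp, Aif1 and Trem2 were higher at 3 weeks, Csf1r, Cx3cr1, Sall1 and P2ry12 were lower, and Tmem119 and Siglech did not pass the test. Thus 7 of the 9 passed an adjusted p of 0.05 (limma, adjusted over all genes), against 36.1% of all genes tested, 3 of them higher against 11.3% of all genes and 4 lower against 24.8%. In the same 7 genes the 2 younger controls did not overlap the 6 older ones, which held for 38.2% of all genes. The median log2 difference over the 9 genes was -0.28, and over all genes it was -0.12.

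The adaptor Tyrobp and Trem2, a receptor that signals through it, were both higher at 3 weeks. Siglech, which also pairs with Tyrobp, did not pass (log2 difference 0.09). Tyrobp was at 67.1 and 76.8 TPM in the 2 P209L Control mice, and at 32.2 (lowest), 40.4 (median) and 61.7 TPM (highest) in the 8-week controls, the highest being KO Control 1. Its log2 difference was 0.79 (SE 0.16, 1.72-fold in TPM + 1, as for all folds below, adjusted p = 0.0018, limma). Trem2 was at 20.2 and 28.9 TPM in the younger controls and at 14.6, 15.4 and 18.9 TPM (lowest, median and highest) in the older ones. The groups were apart, although P209L Control 1 lay close to the highest of the older mice. The log2 difference of Trem2 was 0.58 (SE 0.15, 1.49-fold, adjusted p = 0.0074, limma). Without P209L Control 2 it was 0.33 with an adjusted p of 0.21.

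Aif1, which encodes IBA1, was at 15.98 and 19.3 TPM in the P209L Control mice. In the 8-week controls it ran from 9.07 to 13.96 TPM, with a median of 9.99 and KO Control 1 at the top. Its log2 difference was 0.70 (SE 0.14, 1.62-fold, adjusted p = 0.00145, limma). Aif1 and Tyrobp passed the threshold under all 20 alternatives tried for this comparison, with adjusted p of at most 0.046 for Aif1 and 0.042 for Tyrobp.

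Csf1r had the largest difference of the 9, in the other direction. It was at 21.1 and 28.1 TPM at 3 weeks, while the 8-week controls ran from 28.4 in KO Control 1 through a median of 47.3 to 53.5 TPM. P209L Control 2 and KO Control 1 were therefore nearly equal. The log2 difference of Csf1r was -0.85 (SE 0.24, 0.555-fold, adjusted p = 0.0136, limma). Cx3cr1 was at 14.7 and 20.4 TPM in the younger controls, against 20.5, 24.98 and 26.5 TPM (lowest, median and highest) in the older ones. Here too P209L Control 2 lay next to KO Control 1, and the log2 difference was -0.46 (SE 0.14, 0.727-fold, adjusted p = 0.0223, limma).

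Sall1, the transcription factor, was at 4.10 and 5.23 TPM in the P209L Control mice and at 5.53, 6.80 and 7.76 TPM (lowest, median and highest) in the 8-week controls. The log2 difference was -0.46 (SE 0.14, 0.728-fold, adjusted p = 0.022, limma). P2ry12 was at 37.2 and 39.6 TPM in the younger mice and at 46.1, 49.99 and 56.98 TPM in the older ones. Its log2 difference was -0.38 (SE 0.13, 0.767-fold, adjusted p = 0.0287, limma), and it was -0.24 with an adjusted p of 0.25 when mice were scaled by median-of-ratios size factors, which moved the median of all genes from -0.12 to about 0. That scaling kept the other 6 calls, and the 9 genes kept their directions under it, while the genes called higher over the whole table went from 1837 of 5876 to 3503 of 7180.

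Tmem119 was at 12.8 and 14.6 TPM in the P209L Control mice and between 14.3 and 18.8 TPM in the 8-week controls, so that the groups overlapped. Its log2 difference was -0.28 (95% interval -0.65 to 0.09, adjusted p = 0.225, limma). Siglech was at 18.55 and 19.95 TPM against 17.2 to 20.2 TPM, with a log2 difference of 0.09 (95% interval -0.12 to 0.30, adjusted p = 0.482, limma). Its interval was the narrowest of the 9 genes.

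**Figure D2:**
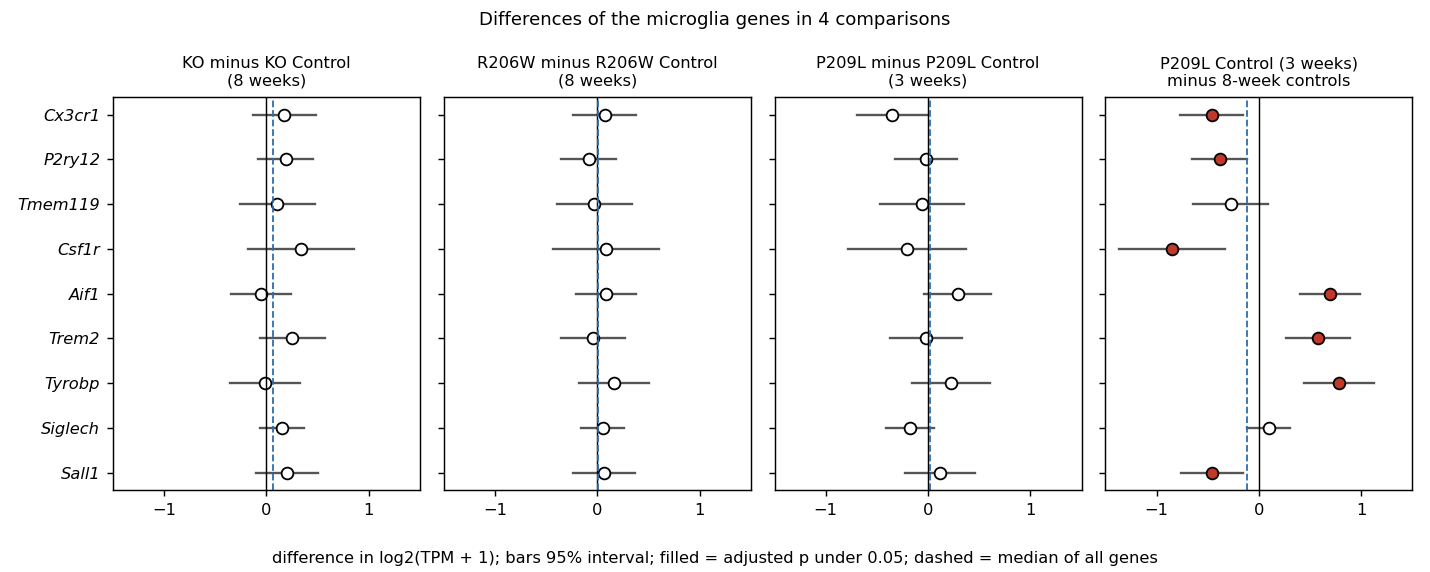
Difference in log2(TPM + 1) of the 9 microglia genes (points) with 95% intervals (bars) in 4 comparisons. Filled points had an adjusted p under 0.05 and the dashed line is the median of all genes. In the age comparison Tyrobp, Aif1 and Trem2 lie to the right and Csf1r, Cx3cr1, Sall1 and P2ry12 to the left, and no point is filled in the 3 mutant comparisons.

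Single mice weighed on these calls. The numbers called in this paragraph stand without the share of all genes called in each setting. A lower number therefore need not be particular to the 9 genes. Without P209L Control 1 the number called was 3 (Aif1, Trem2 and Tyrobp), and without P209L Control 2 it was 5, with P2ry12 and Trem2 lost. Against KO Control alone the number was 3 (Aif1, Trem2 and Tyrobp) and against R206W Control alone it was 7. Without KO Control 1 it was 7. When all 5 mice of 3 weeks were set against all 12 of 8 weeks, mutants included, 8 of the 9 were called, Tmem119 being the eighth with a log2 difference of -0.33. Over these 17 mice Cx3cr1, Csf1r, Aif1 and Tyrobp did not overlap between ages, which held for 16.7% of all genes.

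The genes that were higher at 3 weeks have short transcripts. Tyrobp, Aif1 and Trem2 have principal transcripts of 564, 875 and 1088 bases, Siglech, Tmem119 and P2ry12 of 2138, 2242 and 2344 bases, and Cx3cr1, Csf1r and Sall1 of 4493, 4701 and 5265 bases. The length measure of the mice differed between the ages in the same sense. Over the 17 mice its correlation with Tyrobp was -0.96, with Aif1 -0.95 and with Trem2 -0.76, and with Csf1r it was 0.92, with Cx3cr1 0.90 and with Sall1 0.85. With Tmem119 it was 0.71, with P2ry12 0.60 and with Siglech 0.005. These describe 17 points in 2 age clusters and carry no test. When the trend with length was removed in each mouse, an alternative chosen after the values were seen, the number of genes called was 4. Tyrobp (log2 difference 0.64), Aif1 (0.56), Trem2 (0.46) and Csf1r (-0.54) were called, while Cx3cr1 was at -0.17 with an adjusted p of 0.22, P2ry12 at -0.33 with 0.12 and Sall1 at -0.11 with 0.49. The share of all called genes that were higher moved from 1837 of 5876 to 3093 of 5982.

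**Figure D3:**
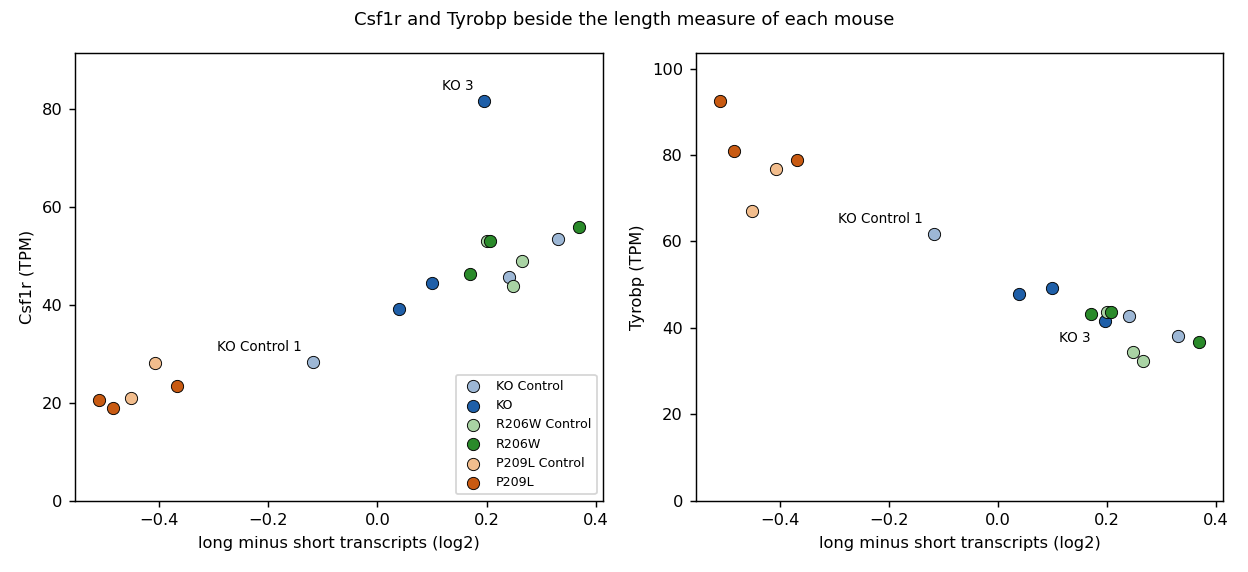
TPM of Csf1r (left) and Tyrobp (right) in each mouse against the length measure of that mouse, in log2 units. Csf1r rises and Tyrobp falls along the axis, the 5 mice of 3 weeks lie between -0.51 and -0.37, and KO Control 1 at -0.12 lies between the ages in both panels.

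Ratios between genes within a mouse do not depend on its scaling. The ratio of Tyrobp to Csf1r was 2.73 to 4.48 (median 3.36) in the 5 mice of 3 weeks and 0.511 to 2.17 (median 0.824) in the 12 of 8 weeks, with KO Control 1 at 2.17 and the next highest at 1.22. The ratio of Aif1 to Cx3cr1 was 0.947 to 1.92 at 3 weeks and 0.311 to 0.68 at 8 weeks, again with KO Control 1 highest. The ratio of Tyrobp to P2ry12 was 1.80 to 2.48 at 3 weeks and 0.646 to 1.08 at 8 weeks. These pairs were chosen after the values were seen, each with a shorter transcript over a longer one. Since Tyrobp and Aif1 (transcripts of 564 and 875 bases) were higher at 3 weeks in every mouse, and Csf1r and Cx3cr1 (4701 and 4493 bases) lower, the first 2 ratios could not overlap between the ages, and all 3 are a description only.

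Other genes of microglia were read from lists of 114 genes in 13 groups, of which 92 passed the filter, in the same comparison. Over all genes tested, 11.3% were called higher and 24.8% lower, and the counts of every list below stand beside these shares. Of 13 further genes of homeostatic microglia, 1 was higher, 2 were lower and 10 did not pass. Crybb1, a crystallin found in microglia, was higher at 3 weeks, with a log2 difference of 0.58 (adjusted p = 0.036, limma). Itgam, the integrin chain CD11b, was lower by a log2 difference of -0.77 (adjusted p = 0.00451, limma), and Olfml3, a secreted protein, by -0.47 (adjusted p = 0.0147, limma).

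The C1q chains, the complement proteins that microglia deposit on synapses, included 2 of 3 genes that were higher at 3 weeks. C1qb had a log2 difference of 0.39 (adjusted p = 0.0386, limma) and C1qc of 0.37 (adjusted p = 0.0443, limma), but the groups of both overlapped. Of 6 myeloid transcription factors tested, 3 were lower, among them Cebpa (log2 difference -0.55) and Ikzf1 (-0.36), and 0 were higher, while Spi1, which encodes PU.1, was at 0.25 (95% interval -0.10 to 0.60) and did not pass. The groups of Cebpa overlapped.

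Among 8 ligands of microglial receptors, 2 were lower and 0 higher, beside 24.8% and 11.3% of all genes. The 2 ligands were Cd47, the signal against engulfment, at -0.80 (adjusted p = 0.00136, limma), and Tgfb1, the growth factor that maintains the microglial state, at -0.59 (adjusted p = 0.0337, limma). The groups of Tgfb1 overlapped, with P209L Control 2 at 2.44 TPM and KO Control 1 at 2.09 TPM. The receptors of Tgfb1, Tgfbr1 (-0.79) and Tgfbr2 (-0.83), were lower as well. For the 2 ligands of Csf1r, Csf1 had a log2 difference of -0.12 and Il34 of 0.37, and for Cx3cr1 the ligand Cx3cl1 had -0.58, and these 3 did not pass. Of 12 signalling partners, 6 were lower and 0 higher, led by the ubiquitin ligase Cbl at -1.02 (adjusted p = 8.22e-05, limma). Syk, the kinase that acts below Tyrobp, was at -0.32 and did not pass (adjusted p = 0.116, limma).

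Of 14 genes of disease-associated or phagocytic microglia, 7 were tested. Cd52, a surface glycoprotein of leukocytes, was higher at 1.26 (adjusted p = 0.00217, limma), as was the chemokine Ccl6 at 0.63 (adjusted p = 0.0194, limma), and the receptor kinase Axl was lower at -0.90 (adjusted p = 0.00163, limma). Cst7, Itgax, Clec7a, Gpnmb, Lgals3, Ccl3 and Ccl4 were below the filter. The lists of transcription factors, ligands and signalling partners include genes that neurons or astrocytes also express.

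Markers of other myeloid and blood cells were examined in the same mice. As above, 11.3% of all genes were called higher and 24.8% lower between the ages. Of 10 markers of border-associated macrophages 5 were tested and 1 (Pf4, 0.52, adjusted p = 0.0276, limma) was higher at 3 weeks. Their sum was 17.5 to 22.7 TPM in the 8-week controls and 19.4 and 23.4 TPM in the P209L Control mice. Of 10 blood leukocyte markers 1 was tested, 0 were called, and their sum was 2.38 to 5.43 TPM in the 8-week controls and 4.59 and 5.47 TPM in the P209L Control mice. Ccr2, the defining receptor of monocytes, was at no more than 0.29 TPM in any mouse, and Ly6g was listed at 0 in 13 of the 17. Erythroid genes passed as higher at 3 weeks in 5 of 5 cases, with a sum of 2572 and 4884 TPM against 696 to 1252 TPM in the 8-week controls. Of 8 oligodendrocyte genes 7 had a difference above 0 and 5 passed the test as higher. Differences were below 0 in 8 of 8 astrocyte genes (3 passed), 7 of 8 endothelial genes (2 passed) and 8 of 8 neuronal genes (4 passed). The part of these in the differences of the 9 genes was not tested.

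**Figure D4:**
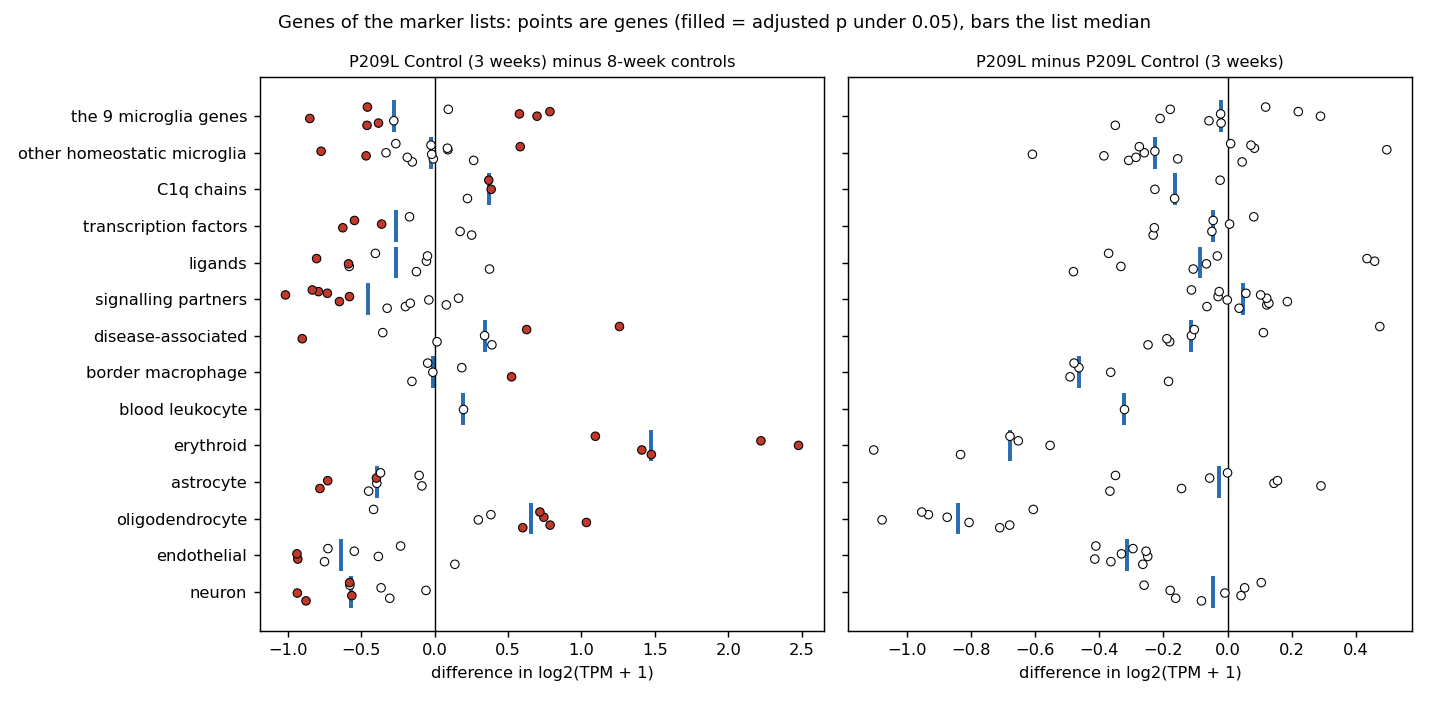
Difference in log2(TPM + 1) of each tested gene (points, filled where the adjusted p was under 0.05) of the 14 lists, with the list median as a bar, for P209L Control against the 8-week controls (left) and P209L against P209L Control (right; its axis covers a smaller range). The 9 microglia genes lie on both sides of 0 on the left, and no gene of any list is filled on the right.

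KO mice were compared with KO Control mice to ask what loss of Hnrnph2 changes. None of the 9 microglia genes passed the test, with a smallest adjusted p of 0.999 (limma) and 0 at an unadjusted p under 0.05, and 0.00615% of all genes were called. The 9 log2 differences ran from -0.05 (Aif1) to 0.34 (Csf1r), 7 of them above 0, with a median of 0.18 beside 0.06 over all genes. Of all 16265 genes, 10942 were above 0. Neuronal markers were split, with 4 of 8 above 0 (median 0.008). Markers of other cells lay mostly above 0 with 0 called. This was so for 8 of 8 astrocyte genes (median 0.23), 8 of 8 endothelial genes (0.33) and 5 of 5 erythroid genes (0.36). It was also so for 7 of 8 oligodendrocyte genes (0.16) and 4 of 5 tested border-associated macrophage genes (0.06). Their summed levels overlapped between the groups, at 1645 to 2244 TPM in KO Control and 2135 to 2505 TPM in KO mice for the astrocyte genes and 133 to 245 against 179 to 290 TPM for the endothelial genes. Their part in the values of the 9 genes was not tested. Trem2 was the only one of the 9 whose groups did not overlap, against 6.25% of all genes. It was at 19.2, 17.4 and 20.1 TPM in KO mice and 15.0, 16.3 and 15.8 TPM in KO Control mice, with a log2 difference of 0.25 (95% interval -0.06 to 0.57).

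Csf1r was the most variable gene in this line. It was at 39.3, 44.5 and 81.6 TPM in KO mice and at 28.4, 45.6 and 53.5 TPM in KO Control mice, so that KO 3 and KO Control 1 set the difference. Its log2 difference was 0.34 (95% interval -0.18 to 0.86), 0.08 without KO Control 1 and 0.02 without KO 3. KO 3 was also the highest of all 17 mice for Cx3cr1 (32.4 TPM), Tmem119 (25.01) and Sall1 (8.99), and its sum over the 9 genes was 290 TPM, against 212 to 256 TPM in the other mice. Its P2ry12 (51.0 TPM), Siglech (19.5), Aif1 (10.1) and Tyrobp (41.7) were within the range of the other mice of its age.

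For the rest, P2ry12 had a log2 difference of 0.19 (95% interval -0.08 to 0.46), Sall1 of 0.20 (-0.11 to 0.50), Cx3cr1 of 0.18 (-0.13 to 0.48), Siglech of 0.15 (-0.06 to 0.36) and Tmem119 of 0.11 (-0.26 to 0.48). Aif1 was at -0.05 (-0.35 to 0.24) and Tyrobp at -0.01 (-0.35 to 0.33). With weights for each mouse, under which KO Control 1 counted least, P2ry12 (0.31, adjusted p = 0.0189, limma) and Siglech (0.21, adjusted p = 0.0379, limma) passed, as did 2156 of all 16265 genes. In the other 14 alternatives 0 of the 9 passed. The other microglia lists held 0 called genes, and came closest in the receptor P2ry13 (log2 difference 0.40), the phosphoprotein Spp1 (0.43) and C1qc (0.33), each with an adjusted p of 0.999 (limma).

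R206W mice were compared with R206W Control mice to ask what that substitution changes. None of the 9 genes passed (smallest adjusted p = 1, limma, with 0 at an unadjusted p under 0.05), and 0.0369% of all genes were called. The groups overlapped for each of the 9, while 16.2% of all genes did not overlap. The log2 differences ran from -0.08 (P2ry12) to 0.16 (Tyrobp), with a median of 0.06 beside 0.01 over all genes. Tyrobp was at 43.6, 43.1 and 36.8 TPM in R206W mice and at 34.5, 32.2 and 43.8 TPM in their controls, with a 95% interval of -0.18 to 0.50. P2ry12 was at 53.0, 50.1 and 40.3 TPM against 50.1, 49.9 and 51.3 TPM, with an interval of -0.35 to 0.18. Siglech and Tmem119 had tight groups on one side only. Siglech was at 17.6, 17.4 and 17.5 TPM in the controls and 19.2, 19.5 and 16.1 TPM in R206W mice (log2 difference 0.05, interval -0.16 to 0.26), and Tmem119 was at 17.2, 16.8 and 17.2 TPM in R206W mice and 15.5, 18.03 and 18.8 TPM in the controls (-0.03, interval -0.40 to 0.34).

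For Csf1r the log2 difference in R206W mice was 0.09 (95% interval -0.43 to 0.60), for Aif1 0.09 (-0.20 to 0.38), for Cx3cr1 0.07 (-0.23 to 0.38), for Sall1 0.06 (-0.24 to 0.37) and for Trem2 -0.04 (-0.35 to 0.27). No gene of the other lists was called, and among those of microglia the growth factor Igf1 (log2 difference -0.33) and Olfml3 (0.30) came closest, each with an adjusted p of 1 (limma).

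P209L mice were compared with P209L Control mice at 3 weeks. None of the 9 genes passed (smallest adjusted p = 0.66, limma), and 0.0984% of all genes were called. Of the 9, 1 had an unadjusted p under 0.05 (limma), against 7.46% of all genes. In 3 of the 9 the groups did not overlap, against 24.9% of all genes. These were Aif1, at 22.5, 20.8 and 21.8 TPM in P209L mice against 15.98 and 19.3 TPM (log2 difference 0.29, 95% interval -0.04 to 0.62), Tyrobp, at 80.8, 92.4 and 78.8 against 67.1 and 76.8 TPM (0.22, -0.16 to 0.60), and Siglech, at 16.4, 18.1 and 16.3 against 18.55 and 19.95 TPM (-0.18, -0.41 to 0.06). The first 2 were higher in the mutants and the third was lower.

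Cx3cr1 had the largest difference of the 9 in P209L mice. It was at 11.8, 13.3 and 15.2 TPM in P209L mice and at 14.7 and 20.4 TPM in their controls, so that the groups overlapped. Its log2 difference was -0.35 (95% interval -0.69 to -0.01, unadjusted p = 0.0469, adjusted p = 0.66, limma). Csf1r was at 18.9, 20.6 and 23.5 TPM against 21.1 and 28.1 TPM (log2 difference -0.21, interval -0.79 to 0.37). Sall1 was at 0.12 (-0.22 to 0.46), Tmem119 at -0.06 (-0.47 to 0.35), Trem2 at -0.02 (-0.37 to 0.33) and P2ry12 at -0.02 (-0.32 to 0.28). The median over the 9 was -0.02, beside 0.02 over all genes.

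Among the other genes of microglia in P209L mice, 0 were called. The smallest p were those of Fcrls, an Fc receptor-like scavenger, at a mean of 13.5 TPM in the mutants (SD 2.89, n = 3) and 20.8 TPM in the controls (SD 3.22, n = 2; log2 difference -0.61, adjusted p = 0.201, limma), and Ctss, the protease cathepsin S, at 104 TPM (SD 13.99, n = 3) and 73.9 TPM (SD 14.5, n = 2; 0.50, adjusted p = 0.325, limma). The groups of both did not overlap. Differences of border-associated macrophage markers were below 0 in 5 of 5 tested genes (median -0.46) with 0 called, their sum being 12.01 to 15.9 TPM in P209L mice and 19.4 and 23.4 TPM in their controls. The same held for 8 of 8 oligodendrocyte markers (median -0.84), none of them overlapping and 0 called (smallest adjusted p = 0.141, limma). It also held for 8 of 8 endothelial markers (median -0.31) and 5 of 5 erythroid genes (median -0.68), with 0 called. Astrocyte markers were split, with 4 of 8 below 0 (median -0.03), as were neuronal markers, with 5 of 8 below 0 (median -0.04). The erythroid sum was 1905 to 2837 TPM in P209L mice and 2572 and 4884 TPM in P209L Control 1 and 2, so that P209L Control 2 stood above the other 4 mice. The part of these cells in the values of the 9 genes was not tested.

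The effects of the lines were compared directly. For the R206W effect minus the KO effect 0 of the 9 genes passed (smallest adjusted p = 1, limma, with 0 at an unadjusted p under 0.05), and 0.0307% of all genes were called. The differences ran from -0.29 (Trem2, 95% interval -0.74 to 0.15) to 0.18 (Tyrobp, -0.31 to 0.66). For the P209L effect minus the KO effect 0 of the 9 passed (smallest adjusted p = 0.557, limma), and 8 of all 16265 genes were called. Cx3cr1 (-0.53) and Siglech (-0.33) had an unadjusted p under 0.05 (limma) there, and the share of all genes under that p is not given. For the P209L effect minus the R206W effect 0 of the 9 passed (smallest adjusted p = 1, limma), and 0 of all genes were called. The last 2 also set ages against each other.

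The controls of the 2 lines of 8 weeks were compared as a background. For R206W Control against KO Control 0 of the 9 genes and 0% of all genes were called, while 507 of all genes had an unadjusted p under 0.05 (limma). Among the 9 this was so for Tyrobp, at 34.5, 32.2 and 43.8 TPM in R206W Control and 61.7, 42.8 and 38.1 TPM in KO Control (log2 difference -0.34, 95% interval -0.68 to -0.000237, adjusted p = 0.784, limma). The other 8 ran from -0.18 (Aif1) to 0.23 (Csf1r), beside a median of 0.13 over all genes. With all mice, this difference of Tyrobp between wild-type littermates of the same age was larger in size than those in R206W (0.16) and P209L mice (0.22). It rested on KO Control 1, without which it was -0.14 and smaller in size than both.

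The 9 genes did not vary as a single unit between mice. Over the 17 mice Csf1r and Cx3cr1 correlated with an r of 0.95 and Aif1 and Tyrobp with 0.95, while Csf1r and Aif1 correlated with -0.90. After each gene was centred on its group means, which takes out age, line and genotype, blocks remained that were described after the values were seen. Csf1r, Cx3cr1, Sall1 and Tmem119 correlated with each other at 0.55 to 0.87 (6 pairs), and P2ry12, Siglech, Aif1 and Tyrobp at 0.52 to 0.83 (6 pairs). Between the blocks r was -0.59 to -0.10, below 0 in 16 of 16 pairs. P2ry12 and Siglech correlated with 0.83 within groups and 0.65 over all mice. Trem2 correlated with its adaptor Tyrobp at 0.79 over all mice and 0.26 within groups.

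The opposition between the blocks rested on 2 mice of the KO line. Without KO Control 1 it was -0.55 to 0.10, without KO 3 it was -0.61 to 0.11, and without both it was -0.33 to 0.45, above 0 in 10 of 16 pairs. Within the first block r was then 0.08 to 0.90 and within the second 0.28 to 0.75. Within groups the length measure correlated with Csf1r at 0.78, Cx3cr1 at 0.73, Sall1 at 0.62 and Tmem119 at 0.49, and with Tyrobp at -0.86, Siglech at -0.78, Aif1 at -0.70 and P2ry12 at -0.62. Trem2, at 0.14, followed it least. Over all 17 mice, without centring, P2ry12 was at 0.60, Siglech at 0.005 and Trem2 at -0.76. These correlations share the libraries and their composition, were taken over 17 mice and carry no test.

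**Figure D5:**
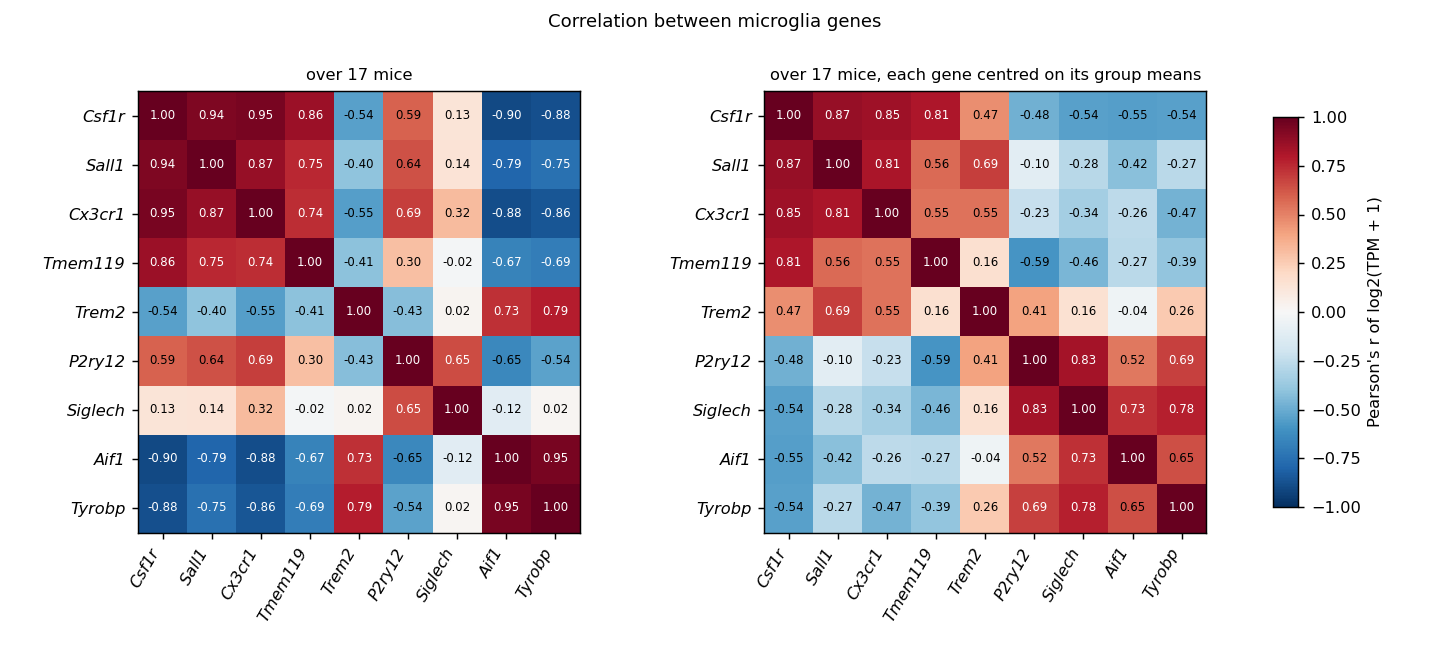
Pearson correlation between the 9 microglia genes over 17 mice, as measured (left) and after each gene was centred on its 6 group means (right), with each r printed in its cell. Csf1r, Sall1, Cx3cr1 and Tmem119 form a block in both panels, and P2ry12 and Siglech join Aif1 and Tyrobp on the right only.

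The genes whose pattern was most like the mean of the 9 standardized genes were named by a rule. Over the 17 mice the highest r outside the 9 were those of Tmem176b (0.85), Mr1 (0.82) and Emp3 (0.82), followed by Ctdsp1, Vamp5, Rlbp1, Pgghg, Mmp14, C1qtnf5 and Glis3 at 0.80 to 0.82. After centring on group means the highest were Clic1 (0.89), C1qc (0.86), Nmb (0.85), C1qb (0.85) and Ppp1r9b (0.84), followed by Gm25291, Rlbp1, Tifab, AU020206 and C1qa at 0.81 to 0.83. The 3 C1q chains, which microglia make, were all among these 10. Single mice stood out in them. C1qa was at 75.1 TPM in KO 3 against 49.7 and 51.9 TPM in KO 1 and KO 2. C1qb was at 101 TPM in P209L Control 2 against 64.4 TPM in P209L Control 1. The part of these mice in the r of the C1q chains was not tested. Each of the 9 was also set against the mean of the other 8. Over all mice Sall1 was highest at 0.52 and Aif1 lowest at -0.61, and within groups Trem2 was highest at 0.74 and Aif1 lowest at 0.08.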

How the data were processed

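RNA was sequenced from bulk cortex of 17 male mice in 6 groups, taken from the labels. Per the labels, tissue was frozen, treated with RNAlater-ICE and extracted with an RNeasy kit, and libraries were made with a TruSeq Stranded Total RNA kit. As deposited, the table gives TPM by gene symbol in a column for each mouse. The submitters' processing notes name Trim Galore, STAR 2.7.1a, GATK 4.0.4.0, RSEM and the build mm10, with no order or role. TPM is scaled to transcript length and to the sum of a column, so depth is unknown and no counting interval is given. Each gene is a share of the whole, which lets abundant transcripts shift the rest.

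The table held 55573 entries, and 120 that repeated a symbol were summed. The filter kept genes whose TPM averaged 1 or more over all mice. Values were analysed as log2(TPM + 1), so differences understate the change of low genes. Folds are likewise those of TPM + 1 and not of TPM. The 6 group means were estimated together over all 17 mice by limma 3.58.1 (R 4.3.3), using lmFit and contrasts.fit, and variances were moderated in eBayes with a trend on expression (trend=TRUE). The moderated tests were two-sided, with Benjamini-Hochberg adjustment over all genes of each comparison and a threshold of 0.05. The p-values rest on a residual spread of each gene that was shared by all 6 groups, and the tests treated each mouse as independent. The labels do not say how mice were distributed over litters. Where mice shared a litter, the p-values could be too small. The script was tested on simulated data.

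The 9 genes, the other lists, the tests and the alternatives were chosen with earlier results of these data known. In each comparison the 9 genes were named, with up to 4 genes of each other list past the threshold or otherwise at most 2 with the smallest p, and the 10 genes most correlated with the mean of the 9. Some listed genes are not reported here. Spi1, Syk, Csf1, Il34, Cx3cl1, Tgfbr2, Ccr2, Ly6g and the comparison of ratios were chosen after values were seen. Annotation was GENCODE M21 (GRCm38), with the longest principal transcript for lengths.

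The alternatives were a pseudocount of 0.1, no filter, a mean TPM of at least 5, median-of-ratios scaling, removal of mitochondrial genes, only the groups compared, a replicate block, sample weights, each mouse left out in turn, other groups for the ages and removal of the length trend.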

Additional observations from a re-analysis of the deposited data

How the results depend on the processing

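In the age comparison 7 of the 9 genes were called, and 8 of the 9 kept their direction under all 20 alternatives, the exception being Siglech, which was at -0.0468 when all groups of both ages were used. Leaving out single mice gave 3 to 7 calls, the lowest without P209L Control 1. The number was 4 with the length trend removed, which was chosen after the data were seen, and 3 against KO Control alone. For the mice left out and for KO Control alone, the share of all genes called is not given here. A lower number there need not be particular to the 9 genes. With only the groups compared, Cx3cr1 (adjusted p = 0.0537, limma) and Sall1 (adjusted p = 0.0505, limma) did not pass. In KO against KO Control sample weights gave 2 calls in place of 0. In the other comparisons 0 of the 9 genes were called under any alternative. KO Control 1 had the lowest sample weight (0.0818) and KO Control 2 the highest (4.05). With 2 or 3 mice in a group the intervals of the mutant comparisons stay wide, and depth could not be judged. Where a mouse was left out of P209L Control, the other was assumed to vary like the mice of the other groups. The cause of these changes was not tested.

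The labels give the groups shared replicate numbers, and nothing says that the numbers mark litters. Deviations of same-numbered mice correlated at -0.11 to 0.33 over 8 pairs of mice. The highest was between KO 3 and KO Control 3, and the next was 0.12, between KO 1 and KO Control 1. A replicate block gave 7 calls in the age comparison and 0 in the other 5.

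Of 900 values of single genes under alternatives, 61 changed sign, with a size of at most 0.23 and adjusted p of at least 0.265 (limma). With sample weights in KO against KO Control these were Csf1r (-0.135), Cx3cr1 (-0.0523), Tmem119 (-0.174) and Tyrobp (0.17). In the R206W effect minus the KO effect they were Csf1r (0.183), Cx3cr1 (0.0956), Sall1 (0.00286) and Tmem119 (0.126). In P209L mice sample weights gave 0.029 for P2ry12 and 0.0216 for Trem2, and the replicate block 0.0181 for P2ry12. In R206W mice sample weights gave 0.0396 for Trem2. In R206W Control against KO Control, size factors gave -0.128 for Cx3cr1, -0.142 for P2ry12, -0.0363 for Sall1, -0.0393 for Tmem119 and -0.106 for Trem2. There the length trend gave -0.134, -0.12, -0.0616, -0.022 and -0.0508 for these 5, removal of mitochondrial genes -0.0275 for Cx3cr1, -0.0385 for P2ry12 and -0.0064 for Trem2, and sample weights -0.065 for Cx3cr1 and -0.0481 for Trem2.

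Leaving out single mice turned the sign within these ranges. In KO mice they were -0.19 to 0.0952 for Aif1, -0.138 to 0.277 for Tmem119 and -0.154 to 0.187 for Tyrobp. In R206W mice they were -0.0126 to 0.162 for Aif1, -0.163 to 0.0309 for P2ry12, -0.0134 to 0.13 for Sall1, -0.106 to 0.0247 for Tmem119 and -0.111 to 0.0699 for Trem2. In P209L mice they were -0.0783 to 0.0847 for P2ry12, -0.0255 to 0.263 for Sall1, -0.159 to 0.0448 for Tmem119 and -0.268 to 0.225 for Trem2. In R206W Control against KO Control they were -0.0257 to 0.42 for Csf1r, -0.0949 to 0.0806 for Cx3cr1, -0.0573 to 0.0926 for P2ry12, -0.00788 to 0.192 for Sall1 and -0.0757 to 0.0983 for Trem2. In the R206W effect minus the KO effect they were -0.00556 to 0.28 for Aif1, -0.456 to 0.063 for Csf1r, -0.208 to 0.0172 for Cx3cr1, -0.306 to 0.109 for Tmem119 and -0.0231 to 0.318 for Tyrobp.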
